A study of Ovis aries with 6 samples.

Results

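The interleukin genes IL1A, IL1B, IL6 and IL15 were examined in the skin of Aohan fine wool sheep, on arrays of wool-bearing body side skin and of groin skin, which carries no wool. They are 4 of the 476 genes that could be named on the array, and they were chosen by gene symbol, not by their signal. A probe is a short sequence spotted on the array that captures the labelled RNA of 1 transcript. Of the 15008 probes, 8 belonged to these genes. Of these, 6 were named by matching their accession to RefSeq (sheep assembly ARS-UI_Ramb_v3.0), namely 2 for IL1A (A_70_P051176 and A_70_P051177), 1 for IL1B (A_70_P039761), 1 for IL6 (A_70_P039706) and 2 for IL15 (A_70_P030111 and A_70_P030112). The other 2 probes (A_70_P041521 and A_70_P041522) carry an expressed sequence tag, a partial read of a transcript, which is tied to IL15 only by lists that the study drew up from probes called on these same arrays. They are therefore described without a test.

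Each skin area was represented by 3 one-colour arrays, and the sheep were 16 months old. Full-thickness skin of both areas was taken in winter from the same 3 animals, a ram and 2 ewes that shared a sire and were kept in pens under ordinary conditions. Which arrays came from the same animal was not given, so the arrays of an area were treated as independent samples, and the close kinship of the animals limits how far the values speak for the breed. The samples were whole skin. A lower signal in such bulk tissue cannot be told apart between fewer cells of a type and less RNA per cell.

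Interleukins are signalling proteins that carry messages between immune cells, epithelial cells and connective tissue. IL1A and IL1B are ligands of the same receptor. IL1A is stored in keratinocytes as an active precursor, whereas IL1B is made mostly by myeloid cells and must be cut by the inflammasome before it acts. Both are known to slow hair shaft growth in cultured follicles. IL6 acts through its own receptor and the shared subunit gp130, and switches on STAT3. IL15 is presented on the surface of one cell to its neighbour, acts through the common gamma chain and STAT5, and sustains natural killer cells and memory T cells.

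The signal is the brightness of a spot after the scanner software had removed the background, in arbitrary units. The share of spots that the software marked as well above background was 74.1% to 76.0% on the body side arrays. It was 79.6% to 92.3% on the groin arrays, the highest on groin replicate 1. The median signal ranged from 97.5 to 130 in body side skin and from 180 to 193 in groin skin, so every body side array was dimmer as a whole, and no spot was saturated. Signals were therefore also compared after log2 transformation and quantile normalization, which gives all 6 arrays the same distribution. With limma, 13929 probes were tested, and a probe was called where the Benjamini-Hochberg adjusted p over all of them was under 0.05 and the fold change was at least 2. The small number of arrays limits the precision of every value.

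All 8 interleukin probes were well above background on at least 1 array and entered the fit, from which no p-value is used for the 2 tag probes. Of the 6 probes named through RefSeq, 3 were called, of which that of IL6 was higher and both of IL1A were lower in the wool-bearing area. Among all tested probes 8.4% were called, 3.53% higher and 4.87% lower. Among the 675 tested probes named through RefSeq 11.1% were called. The 3 arrays of one area did not overlap with the 3 arrays of the other for 4 of the 6 probes, 2 above (IL1B and IL6) and 2 below (IL1A). Over the array, 43.8% of the probes without a missing value were free of overlap, against which this count is to be read. With only 6 probes, neither count is a result about interleukins as a class.

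**Figure D1:**
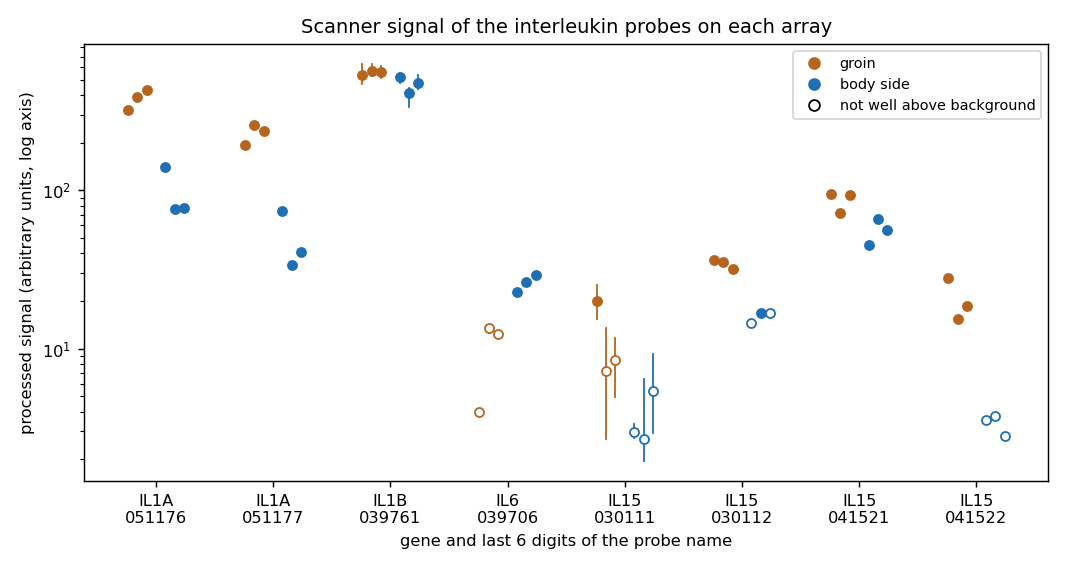
Processed signal (arbitrary units, log axis) of the 8 interleukin probes on the 3 groin and 3 body side arrays, with replicates 1 to 3 from left to right and vertical lines giving the lowest and highest spot of a probe with 5 spots. Open points mark arrays on which the probe was not well above background. The IL1A probes were brighter on every groin array, and IL6 was well above background on the body side arrays only.

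Both IL1A probes were lower in the body side skin, by 2.38-fold and 2.78-fold. For A_70_P051176 the signal was 323, 389 and 434 on the groin arrays, against 140, 76.5 and 77.5 on the body side arrays, each in the order of replicates 1, 2 and 3, which holds for all such values below. Every body side array lay below every groin array, body side replicate 1 being the nearest to the groin arrays. The normalized log2 signal was 8.22 ± 0.18 (SD, n = 3) in groin skin and 6.97 ± 0.29 (SD, n = 3) in body side skin. Its log2 fold change was -1.25 (standard error, SE, 0.20, limma adjusted p = 0.0237), and the 95% interval of the body side over groin ratio ran from 0.299 to 0.591.

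The second IL1A probe, A_70_P051177, showed the same order. Its signal was 192, 259 and 236 in groin skin against 74.5, 33.8 and 40.7 in body side skin. The areas were separated by 0.87 on the normalized log2 scale, and body side replicate 1 was again the brightest of its area. The means were 7.44 ± 0.17 in groin skin and 5.97 ± 0.37 in body side skin (log2, SD, n = 3). The log2 fold change was -1.48 (SE 0.23, limma adjusted p = 0.0225), with a 95% interval of the ratio from 0.245 to 0.527. All 6 arrays measured both probes well above background. They target the same gene, so they are not independent samples of it.

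The call of IL1A was lost without any of 4 single arrays and kept without either of the others. Calls over the whole array also fell without these 4, from 1170 to 13, 11, 44 and 64 in the order below. The adjusted p of A_70_P051176 was 0.10 without groin replicate 2, 0.0993 without groin replicate 3, 0.102 without body side replicate 2 and 0.0971 without body side replicate 3 (limma). That of A_70_P051177 was 0.10, 0.0978, 0.0942 and 0.0956 in the same order. Both fold changes kept their direction and stayed above 2-fold without any 1 array, with log2 values from -1.41 to -1.12 for the former and from -1.68 to -1.35 for the latter. Both probes were called without groin replicate 1 (adjusted p = 0.0352 for each, limma) and without body side replicate 1 (0.0043 and 0.0028). With normexp background correction both passed the adjusted p (0.0171 and 0.0198, limma) but were just under 2-fold (log2 fold changes -0.91 and -0.89). This correction adds an offset of 50 to every signal, which makes log2 fold changes smaller, most of all for dim probes.

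**Figure D2:**
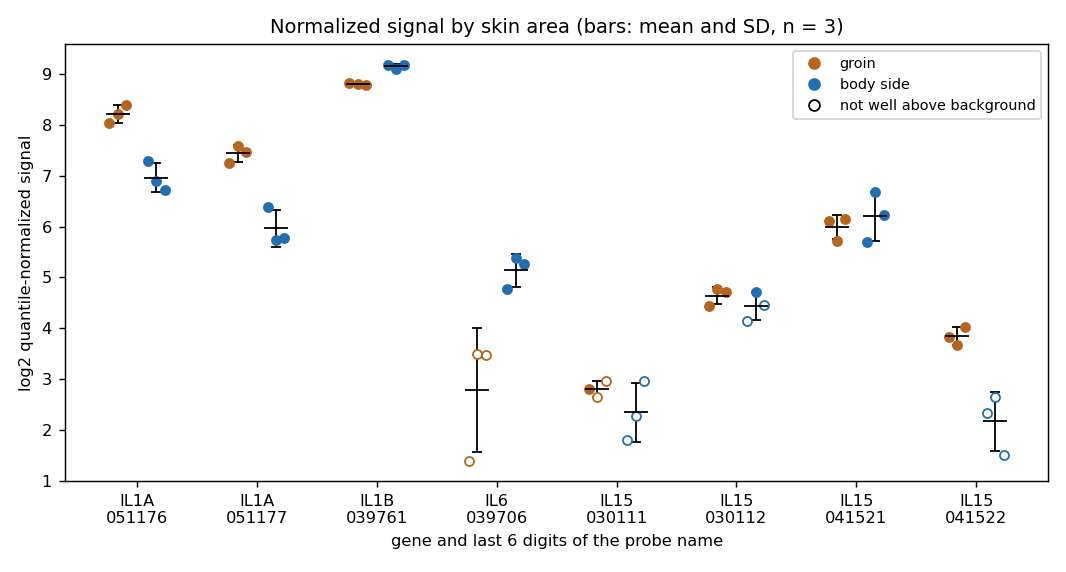
Quantile-normalized log2 signal of the 8 interleukin probes, one point per array, with the mean and SD of the 3 arrays of each area as bars and open points where the probe was not well above background. The gap between the areas is seen for both IL1A probes and for IL6, is narrow for IL1B, and is absent for both RefSeq-named IL15 probes.

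IL1B was not called, and its fold was small. Its probe is spotted 5 times on each array, and the geometric mean signal of the kept spots was 538, 571 and 557 in groin skin against 517, 412 and 480 in body side skin. Before normalization the body side arrays were thus slightly below the groin arrays, though by less than the arrays as a whole. After normalization the log2 signal was 8.80 ± 0.02 (SD, n = 3) in groin skin and 9.16 ± 0.04 (SD, n = 3) in body side skin. All 3 body side arrays then lay above all 3 groin arrays. The log2 fold change of 0.36 (SE 0.13) was not called (adjusted p = 0.0974 from limma), and the 95% interval of the ratio ran from 1.04 to 1.59.

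The direction of IL1B depended on the scaling. With scaling to the 75th percentile the log2 fold change was 0.19. With no normalization between arrays it was -0.25, where the median over all tested probes was itself -0.47, against 0.088 with quantile normalization. The 5 spots of the IL1B probe agreed closely within an array. Their SD was between 0.077 and 0.17 on the log2 scale, after 1 spot on groin replicate 2 and 2 spots on body side replicate 3 had been left out as outliers.

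IL1A and IL1B lie next to each other on sheep chromosome 3, with 0 annotated genes between them in ARS-UI_Ramb_v3.0. Since a difference between probes of the same array does not depend on how the arrays are scaled to each other by a constant, the change of IL1A was set against that of IL1B within each array. The mean of the IL1A probes minus the IL1B probe was -1.17, -0.89 and -0.85 in groin skin against -2.35, -2.80 and -2.94 in body side skin (normalized log2). The sizes of these differences also reflect how well each probe binds and are not a ratio of the transcripts, but their shift between areas is a comparison of the changes. All 3 body side arrays lay below all 3 groin arrays.

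The mean shifted from -0.97 ± 0.18 in groin skin to -2.70 ± 0.31 in body side skin (SD, n = 3), a difference of -1.73. The exact two-sided permutation test over the 20 assignments of the arrays gave p = 0.1, which is the smallest p that 3 arrays against 3 allow, so no threshold of 0.05 could be reached. Before normalization the difference was -1.90. It lay between -1.90 and -1.14 under the 12 other settings in which it was recomputed, and the exact p was 0.1 in all of them. On the normalized scale that p was fixed by values already shown. Both IL1A probes lay lower and IL1B higher in body side skin without overlap, so their difference had to separate the areas. The repeated p is no measure of stability.

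**Figure D3:**
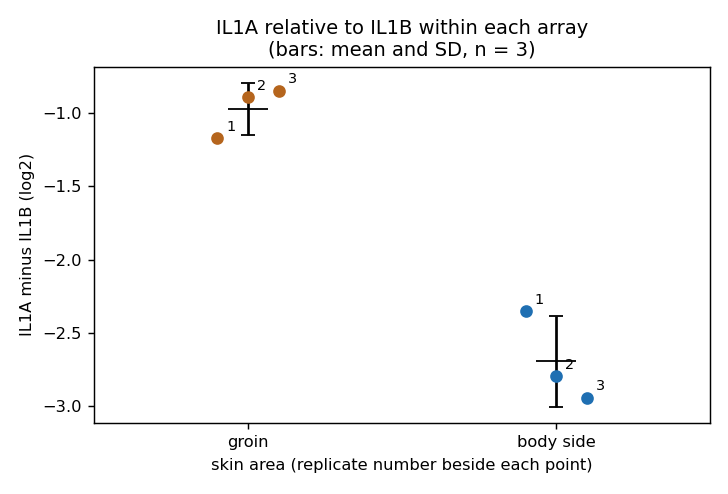
Mean of the 2 IL1A probes minus the IL1B probe within each array (normalized log2 signal), with replicate numbers beside the points and bars for the mean and SD of 3 arrays. The groin arrays sit between -1.17 and -0.85 and the body side arrays between -2.94 and -2.35.

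IL6 was measured on the body side arrays only. The signal of its single probe was 22.7, 26.2 and 29.1 on body side replicates 1, 2 and 3, and the scanner's error estimates for these spots were 4.20, 3.78 and 4.58. It was well above background on all 3 of these arrays. On groin replicates 1, 2 and 3 the signal was 3.98, 13.4 and 12.3, with error estimates of 3.07, 3.19 and 3.22, and the probe was well above background on none of them. Every groin array thus lay below every body side array, and groin replicate 1 was far below the other two. The groin values are not zero, since the software marked all 3 as positive and significant against the background. They are too dim to give a firm fold.

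In normalized log2 signal the body side mean was 5.14 ± 0.32 and the groin mean 2.78 ± 1.22 (SD, n = 3). Each groin array was also taken at the higher of its IL6 value and the lowest value well above background on that array. IL6 was then 4.73-fold higher in body side skin. Only groin replicate 1 was raised by this, from 1.38 to 1.72. The values of replicates 2 and 3 (3.49 and 3.47) already lay above the lowest such value on their arrays. The same ratio was 2.97-fold with scaling to the 75th percentile and 3.96-fold with low signals raised to 5. It was 3.91-fold in the authors' own normalized values and 2.19-fold with no normalization between arrays. It is neither a lower limit of the difference nor a confidence limit. With normexp background correction the fitted log2 fold change was 0.34. The offset of 50 in that correction exceeds every IL6 signal given above, so a small value was built in. It cannot show how stable the difference is. Without that correction the 95% interval of the fitted ratio ran from 1.86 to 14.1. The fit gave an adjusted p of 0.0499 (limma), just under the threshold.

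The call of IL6 therefore turned on small changes. The adjusted p was 0.0520 with outlier spots kept, 0.0523 with no filter on dim probes, 0.0524 without body side replicate 1, 0.105 without groin replicate 3, 0.108 without groin replicate 2, 0.161 without body side replicate 2 and 0.163 without body side replicate 3. Without groin replicate 1, the array with the lowest IL6 signal, IL6 was still called (log2 fold change 1.77, adjusted p = 0.0274 from limma). IL6 remained higher in body side skin under every setting in which it was tested, with fitted log2 fold changes from 0.34 to 2.65.

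IL15 was close to the detection limit. The probe A_70_P030112 had signals of 36.5, 35.0 and 31.9 in groin skin against 14.6, 16.7 and 16.8 in body side skin. All 3 groin arrays measured it well above background, and of the body side arrays replicate 2 alone. Its signal was lower on every body side array before normalization, while after normalization the areas overlapped, with 4.64 ± 0.17 in groin skin and 4.44 ± 0.28 in body side skin (log2, SD, n = 3). The log2 fold change was -0.21 (SE 0.20, limma adjusted p = 0.482), and the 95% interval of the ratio from 0.621 to 1.21 includes no change as well as a fall to 0.621 of the groin level. With no normalization between arrays it was -1.11 and called (adjusted p = 0.0086).

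The other RefSeq-named IL15 probe, A_70_P030111, is spotted 5 times. Its geometric mean signal was 20.1, 7.27 and 8.50 in groin skin against 2.97, 2.67 and 5.38 in body side skin. On the groin arrays 5, 0 and 2 of the 5 spots were well above background, and on the body side arrays 0 of 5 each time, so few of the spots measured it. Its fitted log2 fold change was -0.45 (SE 0.31, limma adjusted p = 0.324), and no fold is given, since the groin mean did not exceed the lowest measurable value on the body side arrays. The sign turned to 0.043 with low signals raised to 5 and to 0.0043 with normexp background correction. The normexp offset of 50 exceeds every signal of this probe, so the latter value was bound to be small. In the other direction, the value was -1.18 with scaling to the 75th percentile and -1.62 with no normalization between arrays, neither of them called. With the slide column as a block, which compares 1 array of each area, it was -1.15.

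The 2 probes of the tag that the study's lists pair with IL15 did not behave alike. A_70_P041521 had signals of 94.3, 71.8 and 93.1 in groin skin against 45.3, 65.6 and 56.1 in body side skin, and was well above background on all 6. After normalization its areas overlapped, at 6.0 ± 0.24 in groin skin and 6.20 ± 0.49 in body side skin (log2, SD, n = 3). The difference of 0.20 turned to -0.20 with scaling to the 75th percentile and to -0.031 without body side replicate 2.

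A_70_P041522 gave 28.1, 15.5 and 18.5 on the groin arrays, all well above background, and 3.52, 3.77 and 2.81 on the body side arrays, none of them well above background. All groin arrays were above all body side arrays for this probe, with means of 3.85 ± 0.17 and 2.16 ± 0.59 (log2, SD, n = 3). The groin mean nevertheless lay below the lowest value well above background on the body side arrays, so no fold is given. The fitted difference of -1.68 was -2.14 with scaling to the 75th percentile and -2.58 with no normalization between arrays. It was -0.087 with normexp background correction, whose offset of 50 exceeds every signal of this probe and makes the difference small. Of the 4 probes assigned to IL15, A_70_P030112 (-1.11 to -0.059) and A_70_P041522 (-2.58 to -0.087) stayed below 0 under every setting in which they were fitted, and A_70_P030111 and A_70_P041521 changed sign.

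**Figure D4:**
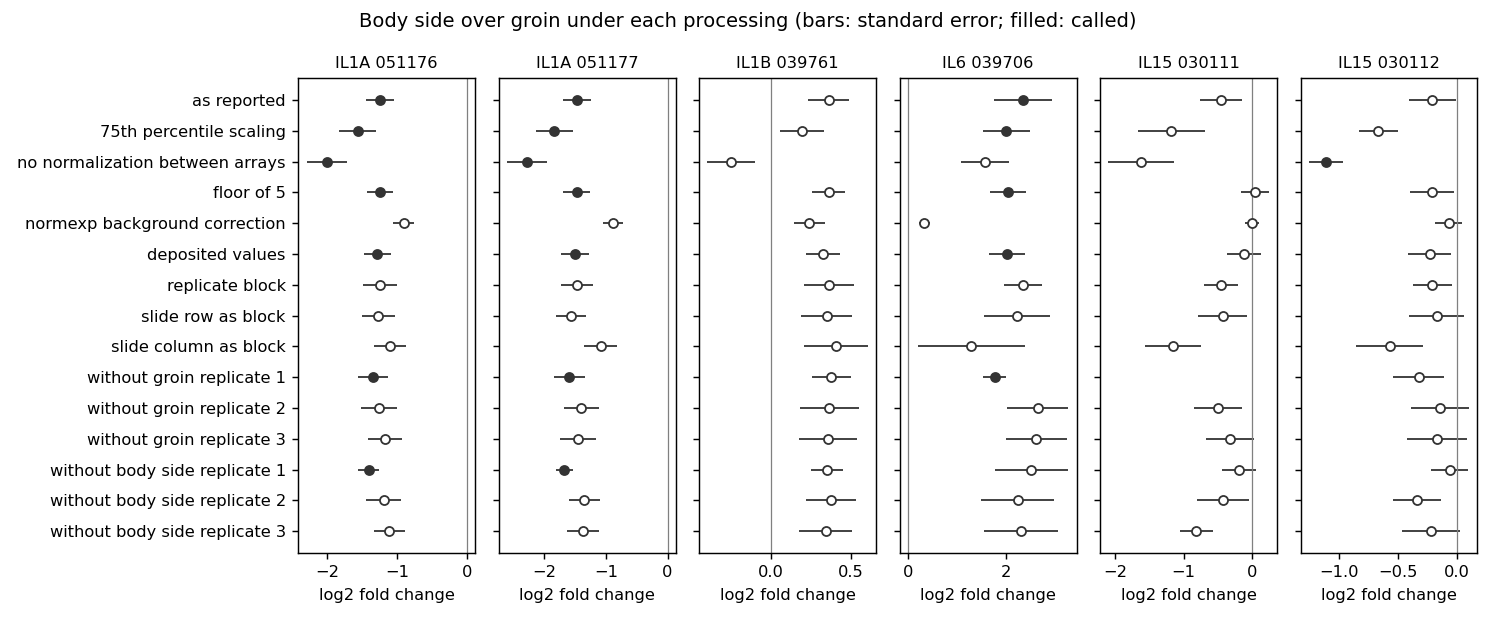
Log2 fold change of body side over groin skin for the 6 RefSeq-named interleukin probes (columns, each with its own axis) under 15 processings (rows), with standard errors as bars and filled points where the probe was called. Both IL1A probes stayed below 0 and IL6 above 0 in every row, IL1B crossed 0 with no normalization between arrays, and A_70_P030111 crossed 0 with a floor of 5 and with normexp. A missing point marks a processing in which the probe was not tested. The row of the slide column as a block rests on body side replicate 1 against groin replicate 3 alone.

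The spot coordinates fit arrays in 3 columns and 2 rows of 1 slide. The methods name a slide per sample, so this layout is inferred, and the conflict was not resolved. If it holds, groin replicates 1 and 2 share column 1, and body side replicates 2 and 3 share column 3. Only column 2 then holds both areas (groin replicate 3 and body side replicate 1). With the column as a block, the log2 fold change was -1.10 and -1.09 for the IL1A probes, 0.41 for IL1B and 1.29 for IL6. Since columns 1 and 3 each hold 1 area, this fit reduces to body side replicate 1 against groin replicate 3. It is thus a difference of 1 array from another, so only its size is given. With the row as a block the log2 fold change was -1.27 and -1.57 for IL1A and 2.24 for IL6, with adjusted p-values of 0.0719, 0.0655 and 0.107 (limma). These fits were chosen after the data had been seen. The part of slide position in the differences was not tested further, and for columns 1 and 3 position and skin area cannot be told apart.

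The receptors could not be followed. None of 9 receptor and antagonist genes looked for (IL1R1, IL1R2, IL1RAP, IL1RN, IL6R, IL6ST, IL15RA, IL2RB and IL2RG) had a probe that could be named here. Other genes of the pathways were followed through lists of 136 genes in all, of which 35 had a named probe. Of their 56 tested probes, 3 were called (5.36%), 2 of them higher in body side skin and 1 lower. The share was 8.4% of all tested probes and 11.1% of the 675 tested probes named through RefSeq. The median log2 fold change over the 56 was 0.040, beside 0.088 over all tested probes and 0.127 over those named through RefSeq. The direction of the calls turned with the scaling. Scaling to the 75th percentile gave 1 call higher and 3 lower, and with no normalization between arrays all 14 calls were lower. These calls too were lost with single arrays left out, as were most calls over the whole array. By limma 0 of the 56 were called without groin replicate 2, groin replicate 3, body side replicate 2 or body side replicate 3 (14, 15, 13 and 11 had an unadjusted p under 0.05), and 15 were called without body side replicate 1.

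In the IL-1 list, 5 of 28 genes had a probe, and 0 of 10 probes were called by limma (2 had an unadjusted p under 0.05). The median log2 fold change was -0.064, and the values ran from -1.12 to 0.54. They belong to IL18, a cytokine of the IL-1 family, to the adaptor MYD88 and the kinase IRAK4, which pass on the signal of the IL-1 receptor, and to the calpain proteases CAPN1 and CAPN2, the family that cuts the IL1A precursor. The IL18 probes had log2 fold changes of -0.019 and -0.11. One IRAK4 probe, singled out after its value was seen, had a log2 fold change of -0.88 (adjusted p = 0.0491 from limma), which is less than 2-fold, and the other IRAK4 probe had -0.30. The former was called lower with scaling to the 75th percentile (-1.28, adjusted p = 0.0176 from limma), and both were called with no normalization between arrays (-1.72 and -1.05).

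STAT3 and the other gp130 ligands looked for beside IL6 had no probe that could be named here. In the list of IL-15 and the common gamma chain, 5 of 18 genes had a tested probe, and 1 of 7 probes was called, lower in body side skin. It belongs to STAT5A, a transcription factor downstream of IL15 and its relatives.

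The called STAT5A probe (A_70_P039387) had signals of 277, 276 and 262 in groin skin against 122, 47.1 and 49.6 in body side skin. The areas did not overlap, and body side replicate 1 was closest to the groin arrays, as it was for IL1A. Its log2 fold change was -1.26 (SE 0.30, limma adjusted p = 0.0420). The second STAT5A probe (A_70_P039386) had -1.09 and was just not called (adjusted p = 0.0545). The T cell growth factor IL2 and its receptor chain IL2RA, and the cytokines IL4 and IL7, had no called probe. The tested IL2 probe had a log2 fold change of 1.57 (adjusted p = 0.0724), and the IL7 probe one of -0.29.

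Of other interleukins and their receptors, 7 of 31 genes had a probe, and 0 of 12 probes were called by limma (2 had an unadjusted p under 0.05). Their median log2 fold change was 0.52. IL3, a growth factor of blood cells, was singled out after its value was seen, with a log2 fold change of 0.98 (adjusted p = 0.0331 from limma), just under 2-fold. It had 0.60 with scaling to the 75th percentile (adjusted p = 0.0612) and 0.15 with no normalization between arrays (adjusted p = 0.490). IL10, an inhibitory cytokine, had -0.11 and -0.15, and CXCL8, a chemokine that attracts neutrophils, had 0.87 and 0.53, which became 0.038 and -0.16 with no normalization between arrays.

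Inflammatory signalling and its targets were represented by 17 of 38 genes. Of 26 tested probes 2 were called, both higher in body side skin, and 11 had an unadjusted p under 0.05. The median log2 fold change was -0.15, on the other side of 0 from both calls. With scaling to the 75th percentile 1 probe was called higher and 1 lower, and with no normalization between arrays 0 higher and 9 lower. The chemokine CXCL10, which attracts T cells and is induced by interferon, had signals of 326, 253 and 244 in groin skin against 492, 429 and 410 in body side skin, without overlap. Its log2 fold change was 1.37 (SE 0.19, limma adjusted p = 0.0194). All 3 body side arrays were brighter already before normalization, where the array as a whole was dimmer. The difference before normalization was 0.70 and was not called.

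TLR1, a receptor for bacterial lipoproteins, was called at 2.15-fold higher (SE of the log2 fold change 0.20, limma adjusted p = 0.0263). Its signals before normalization were dim and overlapped, at 25.9, 22.5 and 17.5 in groin skin against 28.2, 18.6 and 26.8 in body side skin. With scaling to the 75th percentile its log2 fold change was 0.60, and with no normalization between arrays 0.15. It was called with neither. TNF had a log2 fold change of 0.87 (adjusted p = 0.125), the inhibitor NFKBIA 0.10, and the chemokine CXCL1 0.78 and 0.73, of which the first passed the adjusted p but not the fold (adjusted p = 0.0405). With no normalization between arrays the CXCL1 values were 0.0058 and -0.042.

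Other receptors and adhesion molecules of the list, named after their values were seen, went both ways. The probes of the adhesion molecule SELP had log2 fold changes of 0.73 and 0.84, neither of them called. With no normalization between arrays these were -0.16 and -0.045. Others lay below 0. TLR4, the receptor of bacterial lipopolysaccharide, had a log2 fold change of -0.85 (adjusted p = 0.0673 from limma) and was called lower with scaling to the 75th percentile (-1.21, adjusted p = 0.0493). The TLR2 probes had -0.36 and -0.75, and the adhesion molecules ICAM1 and SELE had -0.53 and -0.36. None of the tested probes of TLR4, TLR2, ICAM1 and SELE passed the test as reported. All of them were called lower with no normalization between arrays. For TNFRSF1A, a receptor of TNF, and for a probe of ZFP36, which destabilizes cytokine messengers, body side skin was measured well above background by 1 array of 3, and neither was called (adjusted p = 0.0513 and 0.0711). The other ZFP36 probe was far brighter and well above background on every array, with a log2 fold change of 0.28.

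**Figure D5:**
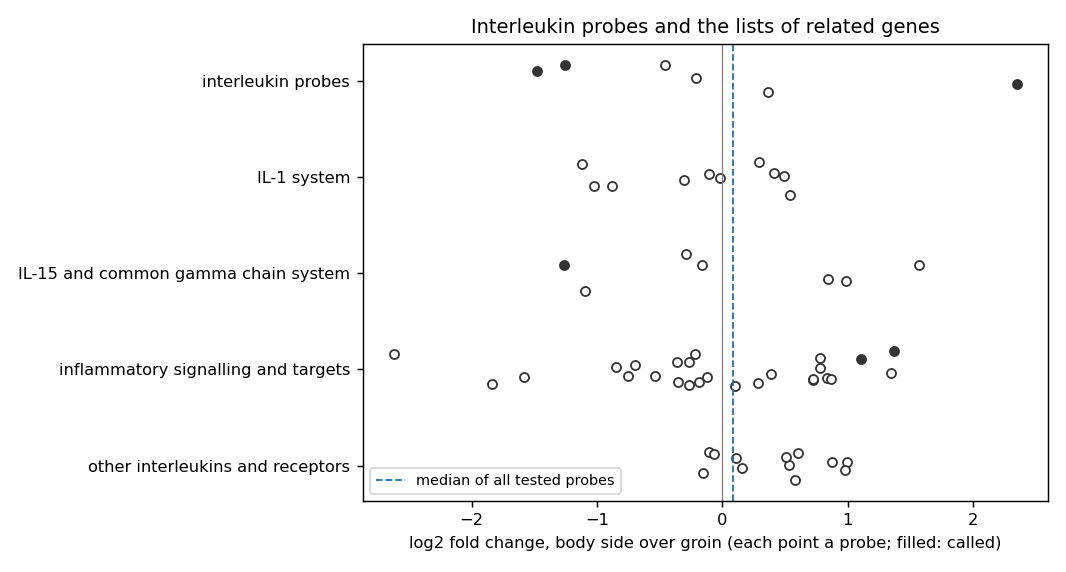
Log2 fold change of body side over groin skin for the 6 RefSeq-named interleukin probes and for the tested probes of 4 lists of related genes (1 point per probe, filled where called), with a dashed line at the median of all tested probes. The called probes are those of IL1A and STAT5A on the left and those of IL6, CXCL10 and TLR1 on the right.

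Markers of the cell types that make or receive these interleukins were read from the same arrays. Of 21 genes of T and natural killer cells, 8 had a probe, and their summed normalized signal was 3782 to 4193 in groin skin and 5423 to 6632 in body side skin. Before normalization the sums were 4469 to 5148 and 4843 to 5817, so the ranges then overlapped. One of the 12 tested probes was called, for GNLY, a granule protein of cytotoxic cells (log2 fold change 1.49, adjusted p = 0.0383 from limma). It was not called with scaling to the 75th percentile. CD3D, a subunit of the T cell receptor complex singled out after its values were seen, had 0.76 and 0.78, both with an adjusted p under 0.05 and less than 2-fold, while CD3E had 0.17 and 0.62. Other members of the list lay below 0. CD247, another subunit of that complex, had -0.73 and -0.57, neither of which passed the test, and both were called lower with no normalization between arrays (-1.53 and -1.39). The CD28 probe was well above background on groin replicate 1 alone. On no array did the 2 CD4 probes reach the level marked as well above background. The part of these markers in the IL6 and IL15 values was not tested.

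Of 21 genes of macrophages and dendritic cells, 6 had a probe, and 0 of 11 probes were called by limma (3 had an unadjusted p under 0.05). Their summed normalized signal was 2193 to 2994 in groin skin and 2162 to 2542 in body side skin, which overlap. With no normalization between arrays 4 of the 11 were called, all lower. Mast cell genes had 2 of 8 with a probe and 0 of 4 probes called (0 had an unadjusted p under 0.05). Neutrophils had LTF alone, at 0.36, and no gene of B cells or endothelium could be followed.

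Genes that define skin were detected in both areas. SFN, an epidermal protein and the only keratinocyte marker with a probe of 16, had a log2 fold change of 0.12, and was very bright on every array (signal over 114819 in groin skin and over 120519 in body side skin). Of 9 probes of hair follicle keratins and PADI3, 2 were called, both of the hair keratin K38, with 2.14 and 3.06. KRT25 (0.11 and -0.042) and KRT27 (0.14), which were far brighter than K38 in both areas, were not called. Nor were PADI3 (0.87 and 0.83) and KRT35, which had missing values on body side arrays. Fibroblast genes had 0 of 3 probes called by limma (1 had an unadjusted p under 0.05). The lipase LPL of adipocytes was called lower by 1 of its 2 probes (limma adjusted p = 0.0359), which was well above background on 2 groin arrays and 0 body side arrays, so no fold is given, and 0 of 6 muscle probes were called (4 had an unadjusted p under 0.05). The haemoglobin gene HBB was called higher, with a log2 fold change of 2.34 (adjusted p = 0.0419 from limma), and its summed normalized signal was 27.8 to 92.7 in groin skin and 136 to 285 in body side skin. The signals before normalization overlapped, at 122, 38.3 and 34.3 in groin skin against 122, 196 and 192 in body side skin. It was not called with scaling to the 75th percentile (adjusted p = 0.0634) or with no normalization between arrays (adjusted p = 0.0770). The part of blood in the IL6 difference was not tested.

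The genes whose pattern was most like that of the interleukins were sought among 501 probes of other named genes with a signal well above background throughout. The mean of the IL1A probes had Pearson correlations over the 6 arrays of 0.995 with RPA1, 0.990 with RPSA and 0.986 with FHL1, and 48 of the 501 probes exceeded 0.9. For IL1B the closest were RHOBTB2 with 0.997, SLC39A13 with 0.987 and K38 with 0.985, and 58 exceeded 0.9. For the tag probe A_70_P041521 they were MB with 0.965, LPAR1 with 0.937 and SLC6A4 with 0.936, and 5 exceeded 0.9. The 6 points share 2 skin areas and the differences in overall brightness between arrays, so a correlation here describes the ordering of the arrays only. IL6 and the other IL15 probes were not well above background on all 6 arrays and were not matched.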

How the data were processed

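Total RNA was labelled with Cy3 and hybridized to Agilent sheep arrays. The authors extracted the scanner output with Agilent Feature Extraction 10.5.1.1 and deposited the processed signal intensity of 15208 non-control spots per array. They also deposited a table of quantile-normalized log2 values for 13967 probes, used as an alternative. A scaling to GAPDH, which the methods mention, was not applied here. No genome build is named in the files, so no coordinates are given, and no probe sequences were used.

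Control and outlier spots were left out, the log2 intensities of a probe's spots were averaged, and arrays were quantile normalized. A probe was tested if most of its spots were well above background on at least 1 array. Body side was compared with groin skin with limma 3.58.1 in R 4.3.3, without a block. As a check of the code, the fit was run on simulated independent arrays with planted changes. That simulation held no effects of array, slide or animal, so it cannot speak to them. Of all probes, 734 matched RefSeq by accession. The list of the IL-6 system is counted in the totals over the lists and is not reported here on its own. Normexp used the median signal in place of the mean signal, with an offset of 50. Named were all interleukin probes, 9 receptor and antagonist genes, called members of the gene lists, and for members measured on all 6 arrays the 3 most correlated genes. Other genes of the lists were named after their values were seen. The members and lists were chosen with earlier results of these data known. The methods name a slide per sample, whereas spot positions fit 1 slide, and this was not resolved. Alternatives varied the scaling, floor, background, filters, outliers, source of values, replicate block, slide position and each array left out.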

Additional observations from a re-analysis of the deposited data

How the results depend on the processing

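Of the 3 called interleukin probes, 0 were called by limma with normexp background correction (4 of 6 had an unadjusted p under 0.05) or with the slide row as a block (3). From 0 to 3 were called with 1 array left out. Normexp adds an offset of 50, which makes log2 fold changes smaller, most of all for dim probes. It gave log2 fold changes of -0.91 and -0.89 for IL1A, and 0.34 for IL6 (adjusted p = 0.0961, limma). Both IL1A probes passed the adjusted p there (0.0171 and 0.0198, limma) and missed only the fold. IL6 was also not called with outlier spots kept (2.34), no filter (2.35), no normalization between arrays (1.57) or the slide row (2.24). It was 1.29 with the slide column, and ranged from 1.77 to 2.65 with 1 array left out. The IL1A probes had -1.27 and -1.57 with the row, -1.10 and -1.09 with the column, and ranged from -1.41 to -1.12 and from -1.68 to -1.35 with 1 array left out. With no normalization between arrays IL1B reversed to -0.25 and the IL15 probe A_70_P030112 was called at -1.11. The IL15 probe A_70_P030111 reversed to 0.043 with the floor of 5 and to 0.0043 with normexp, and the tag probe A_70_P041521 to -0.20 with the 75th percentile, -0.64 with no normalization, -0.45 with the slide column and -0.031 without body side replicate 2, and reached 0.45 without body side replicate 1. The causes were not tested. The fits with slide position and with no normalization were chosen after seeing the data. IL6 and the RefSeq-named IL15 probes drop out when only probes well above background on all 6 arrays are tested.

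The replicate numbers are shared by both areas but are not stated to mark an animal. Deviations from the area means correlated between arrays of equal number at 0.13, 0.073 and 0.057. Between arrays of unequal number the correlations ran from -0.12 to 0.13. These values do not settle whether the numbers mark animals, and the numbers were not taken to pair the arrays. With the replicate block, 8 probes of the array, 0 interleukin probes and 0 pathway probes were called by limma (4847, 3 and 23 had an unadjusted p under 0.05), and the log2 fold changes were -1.25 and -1.48 for IL1A and 2.35 for IL6, with adjusted p-values of 0.0612, 0.0583 and 0.0583.

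Over the array, 1170 probes were called, and 451 with normexp, 2071 with no fold threshold, 2349 with no normalization and 52 with the slide row. With 1 array left out the count ran from 11 (without groin replicate 3) to 2939 (without body side replicate 1). It was 13 without groin replicate 2, 44 without body side replicate 2 and 64 without body side replicate 3. The share of calls that were lower was 58.0%, against 75.9% with the 75th percentile, 48.8% with the filter on all 6 arrays and 97.6% with no normalization. The 3 called pathway probes became 1 with normexp, 6 with no fold threshold, 5 with the filter on all 6 arrays and 14 with no normalization. They became 0 by limma with the slide row (18 with an unadjusted p under 0.05), and 0 to 15 with 1 array left out. Signals near background limit IL6 in groin skin and IL15 in both areas.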
